A study of Mus musculus with 12 samples.

Results

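The genes described here are those of the AMPA and kainate receptors, the ionotropic glutamate receptors that carry most fast excitatory transmission. All 9 subunit genes, Gria1 to Gria4 for AMPA receptors and Grik1 to Grik5 for kainate receptors, were taken by symbol from a table of 25674 Ensembl gene identifiers, and all 9 were found. RNA had been measured in spiral ganglion neurons, the cells that carry auditory signals from the cochlea to the brainstem, sorted as 100 tdTomato+ cells per library from E14.5 embryos. The 6 Control libraries came from embryos of genotype Neurod1Cre; Rosa26tdTOM, and the 6 libraries labelled ISL1CKO from Neurod1Cre;Isl1loxP/loxP;Rosa26tdTOM embryos. Both groups thus carried the Neurod1-Cre BAC transgene and the Ai14 tdTomato reporter on a mixed C57BL/6/sv129 background, with tdTomato marking cells in which Cre had acted, and only the second group also carried floxed alleles of Isl1, which encodes a LIM homeodomain transcription factor. By the labels, each library held spiral ganglion cells of both inner ears of 1 embryo of either sex, from 4 litters in all. A label tag numbers the libraries as technical replicates, whereas the design text calls them biological replicates. If embryos were shared, the p-values would measure only technical spread.

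AMPA receptors are tetramers of the GluA1 to GluA4 subunits encoded by Gria1 to Gria4. The GluA2 subunit sets their permeability to calcium, because its RNA is edited at a glutamine codon of the pore loop and receptors that hold the edited subunit pass little calcium. Kainate receptors combine the GluK1 to GluK3 subunits of Grik1 to Grik3, which can form channels alone, with the GluK4 and GluK5 subunits of Grik4 and Grik5, which need one of the former. Mature spiral ganglion neurons receive glutamate from inner hair cells largely through AMPA receptors.

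The pore loop codon is shown for all 9 genes because it is what separates GluA2 from the other AMPA subunits after editing. Each line gives 42 bases of the coding strand from GENCODE M21 transcripts, 5′ to 3′, with the codon at the edited position in capitals.
Gria1: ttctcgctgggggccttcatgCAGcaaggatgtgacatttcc
Gria2: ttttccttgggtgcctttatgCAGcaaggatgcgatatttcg
Gria3: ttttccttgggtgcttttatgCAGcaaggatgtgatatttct
Gria4: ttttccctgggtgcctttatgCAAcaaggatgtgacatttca
Grik1: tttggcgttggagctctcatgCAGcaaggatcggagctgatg
Grik2: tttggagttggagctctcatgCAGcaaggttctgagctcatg
Grik3: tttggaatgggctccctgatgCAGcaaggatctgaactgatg
Grik4: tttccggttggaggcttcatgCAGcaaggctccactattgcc
Grik5: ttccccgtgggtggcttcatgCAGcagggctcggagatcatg
In Gria2 the codon is number 607 from the start codon and lies in exon 11 of the transcript used, at chr3:80706911-80706913 on the minus strand of GRCm38. The Grik2 codon is number 621, in exon 12 at chr10:49244329-49244331 on the minus strand. Gria4 alone of the 9 genes has the codon CAA here, and the others have CAG. Over the 42 bases, Gria3 matched Gria2 at 39 positions, Gria4 at 37 and Gria1 at 34, while the kainate genes matched at 25 to 29. Editing of this codon is well known for Gria2, Grik1 and Grik2. Counts per gene show neither the editing nor the splice forms of these RNAs.

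Total counts ran from 11895603 to 13857480 per library. Mitochondrial genes held 1.054% to 1.65% of counts in Control and 0.845% to 1.02% in libraries labelled ISL1CKO, without overlap, and the part of this difference in the results was not tested. Counts of Isl1, summed over the whole gene, averaged 1538 ± 217 CPM in Control and 1391 ± 184 CPM in those labelled ISL1CKO (SD, n = 6; edgeR's adjusted p = 0.460), where CPM is counts scaled to library size with TMM factors. They cannot show whether the floxed segment was lost, so the genotype rests on the labels. The libraries labelled ISL1CKO 2, 3 and 5 held both Xist, at 62.9 to 132 CPM, and Y-linked transcripts, at a mean of 35.7 to 87.3 CPM, which goes against 1 embryo per library, and results are given with and without these 3. Of the neuron markers, the pan-neuronal Tubb3 and Snap25 were at 2769 and 472 CPM or more in every library, whereas Gata3 reached down to 18.2 CPM and Prph to 0.381 CPM in the group labelled ISL1CKO. Prph varied widely in both groups, from 10.5 to 224 CPM in Control and up to 165 CPM in the other group. It did not differ by the test (edgeR's adjusted p = 0.825). The 12 neuron markers summed to between 15871 and 18247 CPM in Control and to between 11835 and 14694 CPM in libraries labelled ISL1CKO, with 4 members lower and 1 higher by the test. The lower ones were Gata3 (means of 1474 and 225 CPM), Nefm (3337 and 881 CPM), Nefl (1505 and 579.6 CPM) and Elavl4 (1708 and 1219 CPM), and the higher one was Neurod1 (1471 and 2715 CPM). Schwann cell markers summed to between 31.9 and 185 CPM in Control and to between 34.8 and 250.5 CPM in libraries labelled ISL1CKO, and macrophage markers to between 1.85 and 358 CPM and between 1.24 and 744 CPM. None of the tested genes of these 2 glial and immune lists passed the threshold (0 of 5 and 0 of 9), nor did any of the 5 markers of dividing cells, which summed to between 55.3 and 147 CPM and between 54.4 and 312 CPM. Mesenchyme markers summed to between 38.1 and 84.2 CPM in Control and between 69.9 and 120 CPM in libraries labelled ISL1CKO. Of 4 tested mesenchyme markers 2 were higher, Tbx18 with means of 1.09 and 39.5 CPM and Col3a1 with 2.66 and 14.1 CPM. Pou3f4 (means of 52.9 and 27.4 CPM) and Col1a2 (1.30 and 4.67 CPM) did not pass (edgeR's adjusted p of 0.143 and 0.0602). The untested Twist1, Prrx1 and Col1a1 had means of 1.13 and 0.0129, 0.337 and 4.72, and 0.234 and 0.564 CPM. Hair cell markers summed to between 253 and 538 CPM in Control and between 293 and 579.96 CPM in the other group, most of it Myo6, and Ccer2 was lower, with means of 36.7 and 3.83 CPM. The defining hair cell genes Pou4f3 and Gfi1 were each at 3 counts or fewer in 9 of the 12 libraries. Myo7a and Otof, of the same list, were above 3 counts in every library. Myo7a ran from 0.831 to 13.1 CPM in Control and from 1.68 to 15.2 CPM in libraries labelled ISL1CKO. Otof ran from 0.296 to 7.26 CPM and from 0.365 to 3.69 CPM. Macrophage and Schwann cell marker levels were entered as covariates in an alternative fit, each as the mean of log2(CPM + 1) over its list. The values of that fit are given where they bear on a call, while the part of the other markers was not tested. In such pools, fewer cells of a type that express a gene and less of its RNA per cell cannot be told apart.

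Of the 9 receptor genes, 8 passed the filter on low counts, and 2 of these 8 rose in libraries labelled ISL1CKO while 0 fell (edgeR quasi-likelihood test, Benjamini-Hochberg adjusted p under 0.05 over all genes tested). These were Gria2, by 4.35-fold, and Grik2, by 2.34-fold. Grik4 was the further gene that the DESeq2 Wald test and limma-voom called, as lower. Over all 14813 genes tested, 10.2% were called, 5.01% as higher and 5.19% as lower. The median log2 fold change of the 8 was -0.11, against 0.0045 over all genes tested. Groups did not overlap for the same 2 genes, where 6.78% of all tested genes showed no overlap, 3.13% with ISL1CKO higher.

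**Figure D1:**
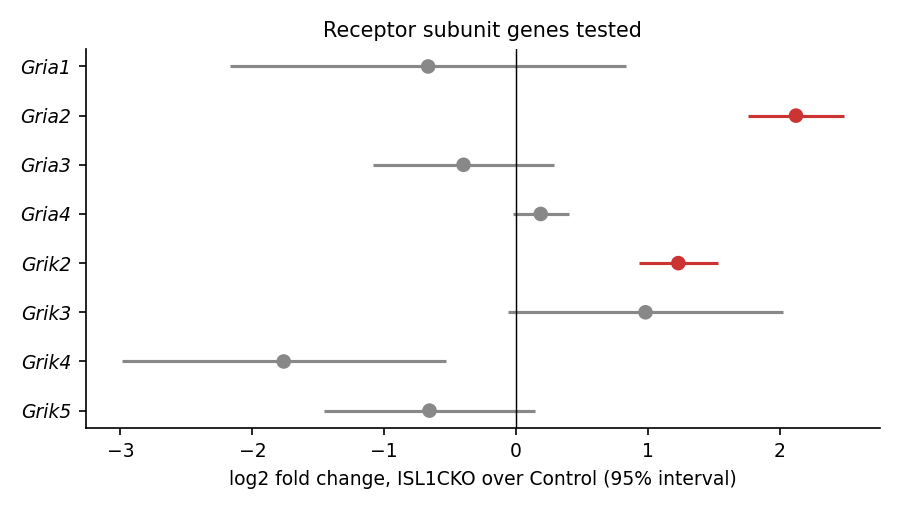
Estimated log2 fold change of each tested receptor subunit gene (horizontal axis, libraries labelled ISL1CKO over Control), with its 95% interval from the edgeR fit as a line. Red marks the 2 genes past an adjusted p of 0.05, Gria2 at 2.12 and Grik2 at 1.23, and grey the other 6.

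Gria2 (ENSMUSG00000033981), which encodes GluA2, lies on chromosome 3 at 80681450 to 80802835, minus strand. Its level in Control was 36.7 CPM at the lowest, 45.4 at the median and 58.1 at the highest. In libraries labelled ISL1CKO it was 139 CPM at the lowest, 207 at the median and 257 at the highest. Every library of the second group therefore exceeded every Control library, with ISL1CKO 1 nearest to them and ISL1CKO 3 and 5 farthest. The means were 46.7 ± 9.65 and 203 ± 45.5 CPM (SD, n = 6), and the fold change on the log2 scale was 2.12, SE 0.17 (95% interval 1.76 to 2.48; edgeR's adjusted p = 1.31e-06). It ranked 32nd by p among the 14813 genes tested. Without ISL1CKO 2, 3 and 5 the log2 fold change was 1.97 (edgeR's adjusted p = 1.12e-04). With the summed macrophage and glial markers as covariates it was 2.39 (edgeR's adjusted p = 4.63e-06).

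Gria4 (ENSMUSG00000025892, chromosome 9, 4417896 to 4796234, minus strand), which encodes GluA4, had the highest level per length of the 9 genes in both groups. It ranged from 86.8 to 109 CPM in Control, with a median of 104, and from 101 to 147 CPM in libraries labelled ISL1CKO, with a median of 111. The groups overlapped, and 4 of the 6 libraries labelled ISL1CKO lay above the highest Control library. Its estimated log2 difference was 0.19, SE 0.10, with a 95% interval from -0.028 to 0.40, and it was not past the threshold (edgeR's adjusted p = 0.287). It was also the steadiest of the 9 genes in Control, with a coefficient of variation of 8.38%.

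Gria3 and Gria1 were lower in abundance. Gria3 (ENSMUSG00000001986, chromosome X, 41400854 to 41678601), encoding GluA3, ran from 9.17 to 34.4 CPM in Control and from 8.10 to 19.5 CPM in libraries labelled ISL1CKO, with medians of 16.6 and 13.2. Control 1 held the highest value, and the groups overlapped. The log2 fold change was -0.40, with a 95% interval from -1.08 to 0.28 (edgeR's adjusted p = 0.504). Gria1 (ENSMUSG00000020524, chromosome 11, 57011387 to 57330244), encoding GluA1, had 4 to 86 counts per Control library and 7 to 81 in those labelled ISL1CKO. Its median was 3.06 CPM in Control and 0.991 CPM in the other group, where ISL1CKO 5 reached 5.91 CPM and 4 of the 6 libraries stayed at 1.27 CPM or less. The log2 fold change of -0.67 had a 95% interval from -2.17 to 0.84 (edgeR's adjusted p = 0.629).

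**Figure D2:**
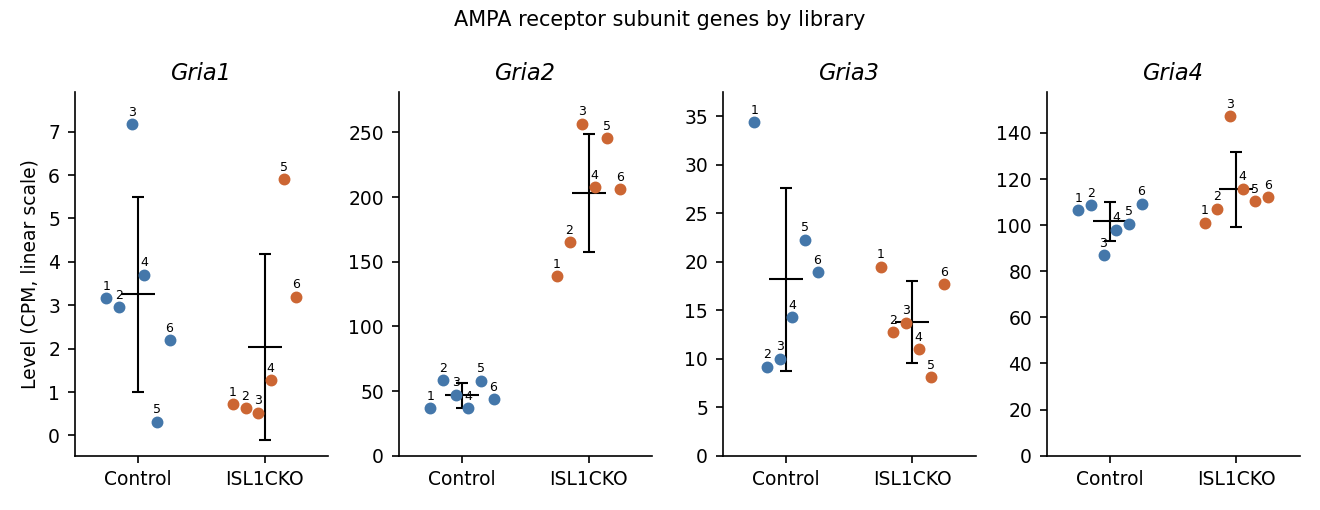
Level of the 4 AMPA subunit genes in each library, in CPM on a linear scale of its own per panel; points are libraries numbered by replicate, and the bar and whiskers are the mean and SD of 6. The Gria2 groups are apart, at 36.7 to 58.1 CPM against 139 to 257 CPM, while the groups of the other 3 genes overlap.

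Divided by the length of all annotated exons, the 4 AMPA genes summed to 21.5 ± 1.64 CPM per kilobase in Control and 33.2 ± 5.01 in libraries labelled ISL1CKO (SD, n = 6), a ratio of 1.54. The sums did not overlap, at 19.0 to 23.3 and 27.05 to 41.3 CPM per kilobase. Gria2 made up 14.02% ± 2.88 of the sum in Control and 39.1% ± 4.04 in libraries labelled ISL1CKO (SD, n = 6). Without division by length the shares were 27.5% and 60.3%, so that Gria2 and not Gria4 was then the largest part in libraries labelled ISL1CKO. Per library the share by length ran from 10.2% to 16.9% and from 33.0% to 45.0%, and from the lowest share to the highest the groups were apart. The share of Gria4 went from 75.0% ± 2.67 to 55.5% ± 3.50 and that of Gria3 from 8.43% ± 3.89 to 4.37% ± 1.78 (SD, n = 6). These are shares of 1 sum, so a higher share of Gria2 lowers the others. In Control, Gria4 stood at 16.1 CPM per kilobase and Gria2 at 3.00, with no overlap between the libraries' values. In libraries labelled ISL1CKO they stood at 18.3 and 13.1 CPM per kilobase and their ranges overlapped. With the length of the longest transcript in place of all exons, the same means were 21.3 and 19.6 CPM per kilobase. The ratio of Gria2 to Gria4 per length was 0.140 to 0.233 in Control and 0.556 to 0.903 in libraries labelled ISL1CKO.

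Among kainate subunits, Grik2 (ENSMUSG00000056073, chromosome 10, 49094833 to 49788766, minus strand), which encodes GluK2, was the gene past the threshold. Its level in Control was 13.2 CPM at the lowest, 16.4 at the median and 19.5 at the highest. In libraries labelled ISL1CKO it was 32.6, 37.6 and 44.2 CPM. The lowest of these lay well above the highest Control library. Grik2 also varied little within a group, with means of 16.1 ± 2.33 and 37.8 ± 3.74 CPM (SD, n = 6). Its estimated log2 difference was 1.23, SE 0.14 (95% interval 0.93 to 1.53; edgeR's adjusted p = 4.24e-05). The value was 1.30 without ISL1CKO 2, 3 and 5 (edgeR's adjusted p = 0.00151). The span of Grik2 holds several annotated noncoding or unconfirmed genes on the same strand. Those in the count table each had at most 49 counts in any library, against at least 167 for Grik2.

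Grik4 (ENSMUSG00000032017, chromosome 9, 42518135 to 42944493, minus strand), which encodes the accessory subunit GluK4, did not pass the threshold. It ran from 8.06 to 23.6 CPM in Control, with a median of 15.1, and from 0.828 to 13.2 CPM in libraries labelled ISL1CKO, with a median of 2.24. In the latter group 5 of 6 libraries lay below every Control library, and ISL1CKO 1, at 13.2 CPM, lay inside the Control range. The fold change on the log2 scale was -1.76, SE 0.58 (95% interval -2.99 to -0.53; edgeR's adjusted p = 0.0680). Without ISL1CKO 1 it was -2.51 and past the threshold (edgeR's adjusted p = 0.00460), and without ISL1CKO 2, 3 and 5 it was -1.09 (edgeR's adjusted p = 0.364).

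Grik5 (ENSMUSG00000003378, chromosome 7, 25009849 to 25072346), encoding the accessory subunit GluK5, ran from 3.16 to 15.2 CPM in Control and from 2.97 to 6.32 CPM in libraries labelled ISL1CKO. The medians were 6.59 and 4.84 CPM, the groups overlapped, and Control 3 held the highest value. Its log2 fold change was -0.66 (95% interval -1.45 to 0.14; edgeR's adjusted p = 0.317). Grik3 (ENSMUSG00000001985, chromosome 4, 125490700 to 125714173), encoding GluK3, ran from 1.19 to 7.10 CPM in Control and from 1.68 to 12.9 CPM in the other group. In libraries labelled ISL1CKO 4 of 6 exceeded every Control library, and ISL1CKO 3 and 6 did not. The log2 fold change was 0.98, with a 95% interval from -0.062 to 2.02 (edgeR's adjusted p = 0.246).

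Grik1 (ENSMUSG00000022935, chromosome 16, 87895900 to 88290265), encoding GluK1, was not tested because too few libraries held counts. Control libraries had 0 to 2 counts. Among those labelled ISL1CKO, library 1 had 85 counts, or 6.73 CPM, and the other 5 had 0 to 3. The 6 receptor genes tested and not called were all still not called without ISL1CKO 2, 3 and 5, with edgeR's adjusted p from 0.364 to 0.881.

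**Figure D3:**
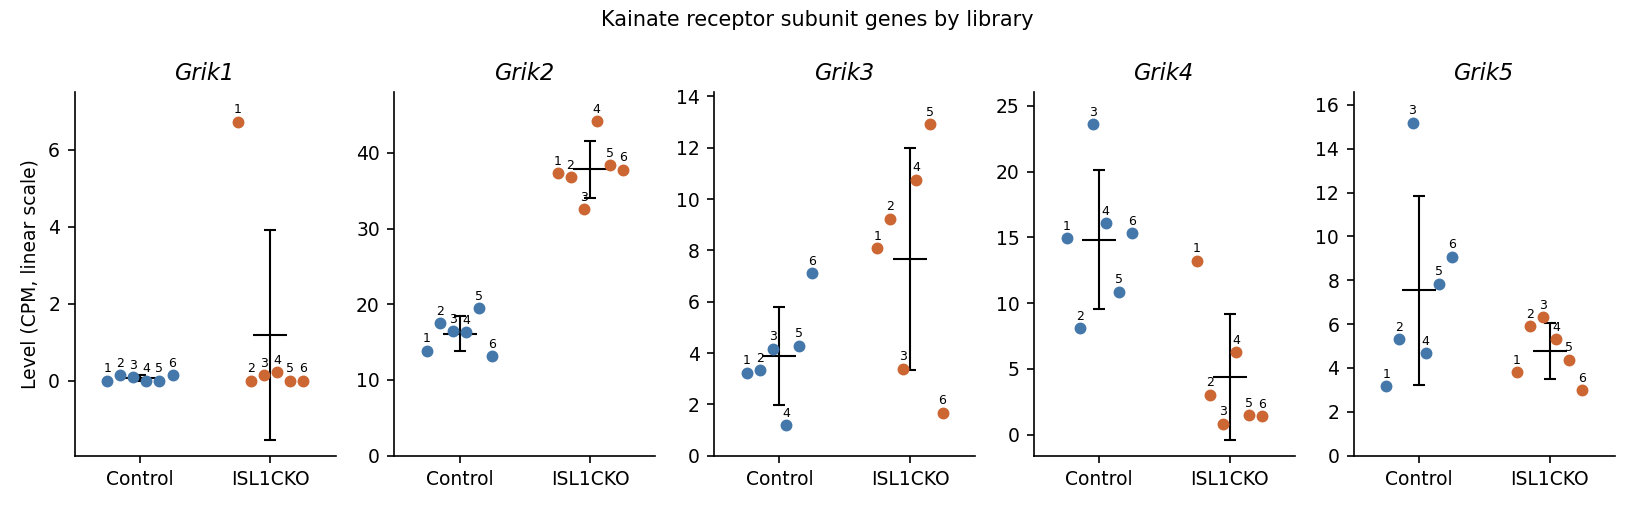
Level of the 5 kainate subunit genes in each library, in CPM on a linear scale of its own per panel; points are libraries numbered by replicate, and the bar and whiskers are the mean and SD of 6. Grik2 is at 13.2 to 19.5 CPM in Control and 32.6 to 44.2 CPM in libraries labelled ISL1CKO, and in Grik4 library ISL1CKO 1 sits among the Control values.

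The kainate genes summed to 5.60 ± 1.63 CPM per kilobase of exon in Control and 5.54 ± 1.44 in libraries labelled ISL1CKO (SD, n = 6), a ratio of 0.989. Within that sum the make-up differed. Grik4 was the largest part in Control, at 44.2% ± 9.57, and stood at 11.3% ± 9.73 in libraries labelled ISL1CKO (SD, n = 6). Grik2 was 23.1% ± 6.82 in Control and 53.9% ± 12.2 in libraries labelled ISL1CKO, where it was the largest part in each library (SD, n = 6). Without division by length the means were 39.3% and 69.3%. By length its share ran from 14.4% to 32.3% in Control and from 36.7% to 74.2% in the other group, without overlap. Grik5 stood at 24.7% ± 7.59 and 17.6% ± 6.64, and Grik3 at 7.83% ± 3.50 and 14.8% ± 7.83 (SD, n = 6). These shares, like those of the AMPA genes, are a description with no test.

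**Figure D4:**
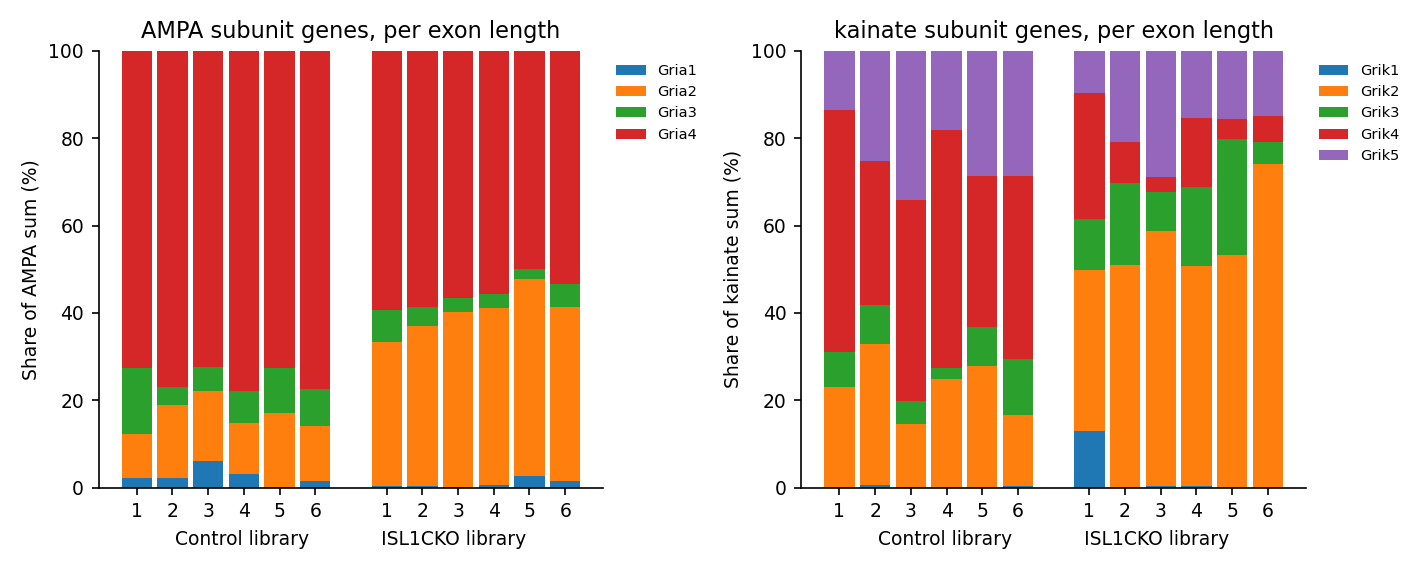
Make-up of the AMPA sum (left) and the kainate sum (right) in each library, as stacked percentages of CPM per kilobase of exon. Gria2 takes 10.2% to 16.9% of the AMPA sum in Control and 33.0% to 45.0% in libraries labelled ISL1CKO, and Grik2 14.4% to 32.3% and 36.7% to 74.2% of the kainate sum.

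Ordered by mean level per length, the Control libraries had Gria4 first, then Gria2, Grik4, Gria3, Grik5, Grik2, Gria1, Grik3 and Grik1. Only Gria4 over Gria2, and Grik3 over Grik1, were steps without overlap between neighbours. In libraries labelled ISL1CKO the order was Gria4, Gria2, Grik2, Gria3, Grik5, Grik3, Grik4, Gria1 and Grik1. There the steps without overlap were those from Gria2 to Grik2 and from Grik2 to Gria3. Grik2 thus moved from the sixth place to the third. With the longest transcript as the length, Gria3 stood above Grik4 in Control, at 3.49 against 2.52 CPM per kilobase.

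The closest genes to Gria2 in pattern, by Pearson's r of log2 CPM over the 12 libraries among the 9596 genes whose log2 CPM averaged 3 or more, were Lhx1os (r = 0.984), Cbln2 (r = 0.981) and Brinp3 (r = 0.981). For Grik2 they were Lingo2 (r = 0.980), Cbln2 (r = 0.978) and Nhlh2 (r = 0.975). All 5 are higher in libraries labelled ISL1CKO, so these values largely restate the difference between the groups. Within groups of 6, r of Gria2 with Lhx1os was 0.741 in Control and 0.771 in libraries labelled ISL1CKO, and with Cbln2 0.657 and 0.786. With Brinp3 it was 0.541 and 0.966, but Brinp3 averaged only 0.416 ± 0.348 CPM in Control, near the floor of 3 counts (SD, n = 6). That Control value therefore says little, and Brinp3 reached the average of 3 through the other group, at 161 ± 53.0 CPM (SD, n = 6). The r of Grik2 with Lingo2 was 0.911 and 0.192. Cbln2, a secreted synapse organizer that bridges presynaptic neurexins to postsynaptic receptors of the delta type, went from 9.24 ± 4.96 to 490.0 ± 167 CPM (SD, n = 6; edgeR's adjusted p = 1.95e-07).

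The promoter of Gria2 is shown because it is the one of a gene that rose here and holds a known element. RE1 is a binding element of the repressor REST. Its core of 14 bases was searched on both strands of the 250 bases before the start site, and 15 of 32851 promoters of that length (0.0457%) held it. The table of RefSeq promoters on GRCm38.p6 matched 6 of the 9 receptor genes, namely Gria2, Gria4, Grik2, Grik3, Grik4 and Grik5. Of these only Gria2 held the element, on the strand opposite to the gene, from 170 to 157 bases before the start site. The window is chr3:80802836-80803085, minus strand, with the 14 matching bases in capitals.
Gria2: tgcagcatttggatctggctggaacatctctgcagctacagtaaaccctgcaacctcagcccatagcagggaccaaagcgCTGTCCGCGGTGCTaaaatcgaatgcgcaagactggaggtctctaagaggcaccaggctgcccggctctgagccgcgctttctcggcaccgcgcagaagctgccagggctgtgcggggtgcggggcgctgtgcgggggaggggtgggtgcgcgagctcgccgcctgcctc
The letters TAATG, a core that LIM homeodomain proteins can bind, were found on either strand in 23.9% of all promoters of this length and in 0 of the 6 receptor promoters. A match describes the letters of this window only.

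Partners of these receptors were read from 8 lists holding 64 genes, of which 54 were tested and 13 passed the threshold, 5 higher and 8 lower (24.1% of those tested, against 10.2% of all genes). The lists were chosen with earlier results of these data known, so the 2 shares are a description and no test of the partners. Without ISL1CKO 2, 3 and 5 the count was 8, with 4 higher and 4 lower. In that fit 767 genes were called in all, in place of 1511. The median log2 fold change over the 54 was -0.060.

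Auxiliary subunits that bind AMPA receptors and shape their gating and trafficking held the most calls, with 4 higher, 1 lower and 7 not past the threshold of 12 tested. Shisa9, which encodes CKAMP44, had at most 3 counts in any Control library and averaged 8.48 ± 6.03 CPM in libraries labelled ISL1CKO (SD, n = 6). It was at least 36.3-fold higher against the mean Control floor of 3 counts per library, 0.234 CPM (edgeR's adjusted p = 6.05e-05). Shisa6 rose from 18.4 ± 5.48 to 45.2 ± 12.3 CPM (SD, n = 6), or on the log2 scale by 1.29 (edgeR's adjusted p = 0.00147). Shisa8 and Prrt1, whose products also bind AMPA receptors, rose on the log2 scale by 2.59 and 2.18 (edgeR's adjusted p of 0.00840 and 0.00234). The Shisa8 call was lost without ISL1CKO 2, 3 and 5 (edgeR's adjusted p = 0.0965), whereas that of Prrt1 was just kept (0.0498). For all 4 of these genes the groups did not overlap. The lower one was Cacng5, named after its value was seen, which encodes the TARP gamma-5. It went from 81.5 ± 46.1 to 24.8 ± 17.5 CPM (SD, n = 6) with overlapping groups (edgeR's adjusted p = 0.0263). That call was lost without ISL1CKO 2, 3 and 5 (0.166) and with any 1 of 5 single libraries left out, namely Control 1 or 6 or ISL1CKO 4, 5 or 6 (0.0528 to 0.0613). Cacng2, which encodes stargazin, was at 40.2 ± 8.64 and 45.5 ± 6.11 CPM and did not pass (SD, n = 6; edgeR's adjusted p = 0.529). Shisa6 overlaps a noncoding gene on the opposite strand, and the use of strand in counting is not stated.

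Of the kainate auxiliary subunits, Neto2 was tested and Neto1 was not. Neto2 averaged 63.7 ± 17.9 and 40.3 ± 5.40 CPM (SD, n = 6), a log2 ratio of -0.66 (edgeR's adjusted p = 0.0293), with overlapping groups. It lost its call without ISL1CKO 2, 3 and 5 (0.193), with the marker covariates (0.307) and with any 1 of 7 single libraries left out (Control 2, 3 or 5, or ISL1CKO 2, 4, 5 or 6; 0.0524 to 0.0696).

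Genes that act on assembly in the endoplasmic reticulum, 6 in all, were all not past the threshold of edgeR's test, and 0 of the 6 had an unadjusted p under 0.05. Abhd12, the most abundant, was at 79.5 ± 8.07 and 77.9 ± 9.78 CPM (SD, n = 6). Of 14 scaffold and trafficking genes tested, Grip1 alone passed. Grip1 encodes a PDZ protein that binds the GluA2 tail. It fell from 90.6 ± 21.8 to 34.3 ± 9.43 CPM (SD, n = 6), a log2 ratio of -1.40 with no overlap (edgeR's adjusted p = 2.58e-04). Pick1, which binds the same tail, had a log2 fold change of -0.40 that did not pass (edgeR's adjusted p = 0.152). Grip1 overlaps antisense genes and Helb on the other strand. Among 10 extracellular organizers tested, Olfm1 alone passed, with means of 179 ± 34.1 and 117 ± 20.1 CPM (SD, n = 6) and a log2 fold change of -0.61 (edgeR's adjusted p = 0.00941). The Olfm1 call was lost without ISL1CKO 2, 3 and 5 (0.0797) and with the marker covariates (0.0601).

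The deaminase Adarb1, known for editing the Gria2 codon shown above, was at 9.20 ± 2.98 and 7.38 ± 4.02 CPM and did not pass (SD, n = 6; edgeR's adjusted p = 0.683). Its catalytically inactive relative Adarb2 fell from 404 ± 38.9 to 97.3 ± 23.4 CPM (SD, n = 6). The Adarb2 groups did not overlap, at 349 to 461 and 61.9 to 130 CPM, and its log2 fold change of -2.05 (edgeR's adjusted p = 4.40e-07) was 4.15-fold. Other ionotropic glutamate receptor subunits had 3 of 6 tested genes lower and 0 higher. These were the NMDA receptor genes Grin3a, Grin2a and Grin2d, at log2 ratios of -2.23, -1.17 and -2.44 (edgeR's adjusted p of 2.23e-06, 0.00241 and 0.00564). Grin2d, with 110 counts at most in Control and as few as 2 in a library labelled ISL1CKO, overlaps Kdelr1 and an antisense gene on the opposite strand. Its call was just kept with the marker covariates (edgeR's adjusted p = 0.0495). Grin3a overlaps the protein-coding Ppp3r2 on the same strand, and Adarb2 overlaps several unconfirmed genes on the same strand. The Grin2a call was lost without ISL1CKO 2, 3 and 5 (0.0824). Slc17a6, which encodes the vesicular glutamate transporter VGLUT2, rose from 365 ± 71.7 to 667 ± 34.7 CPM (SD, n = 6), or on the log2 scale by 0.87 with no overlap (edgeR's adjusted p = 1.14e-04). Slc17a7, encoding VGLUT1, was at 4.76 ± 2.34 and 6.99 ± 3.34 CPM and did not pass (SD, n = 6; edgeR's adjusted p = 0.449).

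**Figure D5:**
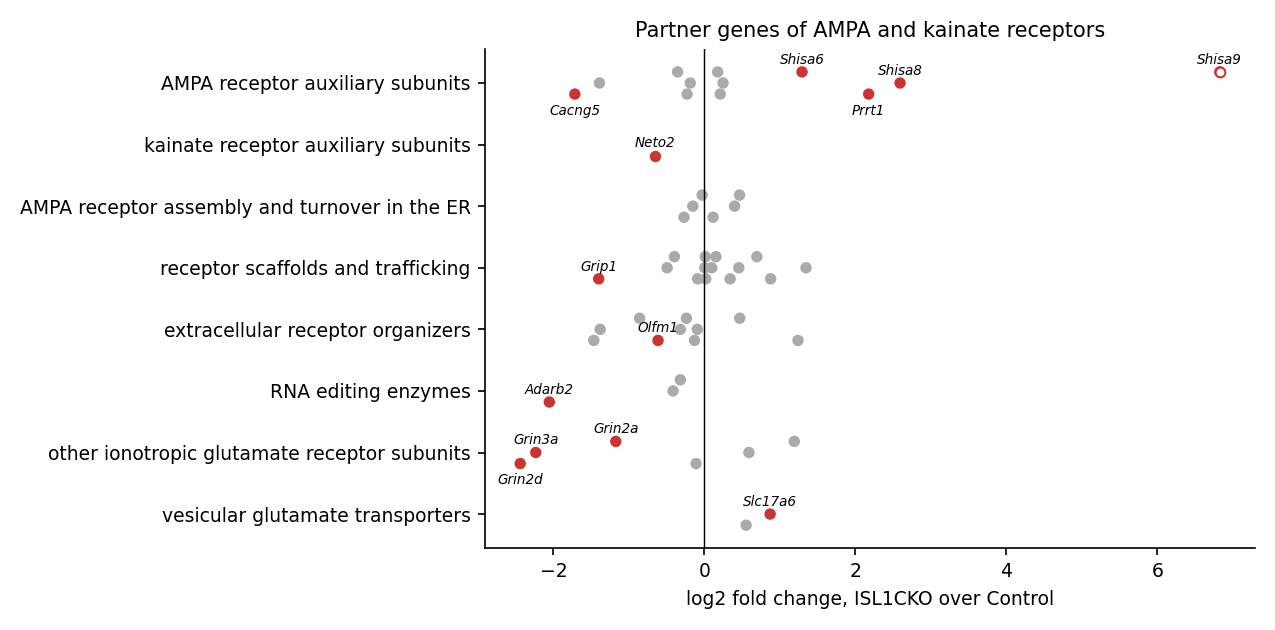
Estimated log2 fold change (horizontal axis, libraries labelled ISL1CKO over Control) of the 54 tested partner genes, one row per list, with the 13 past an adjusted p of 0.05 named in red and the rest in grey. The open point, Shisa9, had Control counts at the floor, so its place on the axis depends on the prior count of the fit. The 3 called NMDA receptor genes lie between -2.44 and -1.17, left of zero.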

How the data were processed

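The authors deposited raw counts per Ensembl gene for 12 libraries, not normalized. The submitters' processing notes name cutadapt 1.18, Bowtie 1.2.2, STAR 2.7.0c, featureCounts and GRCm38.p6; strand use and annotation release are not given in the sources used here. Symbols came from a reference table of gene names, which holds 25620 of the 25674 identifiers, and coordinates and lengths from GENCODE M21, on the same build. The genotypes were compared with edgeR 4.0.16 in R 4.3.3, using filterByExpr (minimum count 10), TMM, and the robust quasi-likelihood test with no covariate; all genes were fitted and adjusted together. A standard error is the log2 fold change divided by the square root of F. Alternatives used DESeq2 1.42.0 and limma 3.58.1. Intervals and floors (3 counts per library) cover no PCR duplication, since no molecular identifiers are stated.

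The test was run on simulated data: in counts drawn from these genes' means, where 14400 genes were tested, edgeR recovered 89.2% of 111 genes altered 4-fold and 40.2% of 82 altered 2-fold, with 2.22% of calls false. Far fewer genes were altered there than were called in the data. The simulated libraries also held no mixed or outlying library, so these rates need not hold here.

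The members and lists were chosen with earlier results of these data known. Named partner genes are the called genes of each list, up to 4 by p, or the most abundant gene of a list with none; Cacng2, Cacng5, Pick1, Adarb1 and Slc17a7 were added after their values were seen. Of 50-base windows of transcripts, 19 of 15690 of Gria2 and 0 of 13445 of Grik2 occur in another receptor gene.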

Additional observations from a re-analysis of the deposited data

Results flagged for a closer look

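In 2 of 26 sets of 6 library values checked, a single library stood away from the other 5 by Dixon's gap ratio; about 1.3 such sets would arise by chance. Gria4 was at 147 CPM in ISL1CKO 3, and the next highest library of that group was at 116 CPM. Without ISL1CKO 3 its log2 fold change was 0.11 in place of 0.19 (edgeR adjusted p = 0.509). Grik1 was at 6.73 CPM in ISL1CKO 1, with 0.224 CPM as the next highest value in the group. Schwann cell, macrophage and dividing cell markers in that library summed to 169, 144 and 199.7 CPM. Other libraries of the group were as high or higher, with 250.5 CPM of Schwann cell and 312 CPM of dividing cell markers in ISL1CKO 2 and 744 CPM of macrophage markers in ISL1CKO 4, where Grik1 had 0 and 3 counts. Which cells gave the Grik1 counts of ISL1CKO 1 was not tested.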

How the results depend on the processing

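Gria2 and Grik2 kept their direction and call under all 21 alternatives, with log2 fold changes from 1.97 to 2.39 and from 1.176 to 1.30. With 1 library left out they ran from 2.04 to 2.21 and from 1.176 to 1.29. Grik4 was called under the DESeq2 Wald test (-1.76), limma-voom (-2.09) and the marker covariates (-3.17), and with 1 library left out it ran from -2.51 to -1.54. The replicate block gave -2.27 for Grik4 and 3 receptor genes called; same-numbered libraries had correlations of -0.056 to 0.152 and share only a number. Under the block Neto2 was not called (edgeR adjusted p = 0.0570). Gria1 turned to 0.078 with the marker covariates. Without ISL1CKO 2, 3 and 5, which leaves 3 libraries in that group, 8 partner genes and 767 genes in all were called, in place of 13 and 1511. With the marker covariates 914 genes were called. Fewer libraries enter the former test, and otherwise the cause was not tested. Without length scaling the Gria2 share differed by 32.7 percentage points (27.5% and 60.3%) in place of 25.1. The DESeq2 Wald test called 2082 genes, within 1.5 times. The depth limits Gria1, Grik1 and Grik3 most, with at most 86, 85 and 177 counts in any library.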
